A study of Mus musculus with 36 samples.

Results

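The 8 genes described here were grouped as anti-inflammatory feedback genes: the phosphatase gene Dusp1, the NF-kB inhibitor genes Nfkbia and Tnfaip3, the mRNA decay factor gene Zfp36, the annexin gene Anxa1, the cytokine inhibitor gene Socs3, and the genes Cebpb and Cebpd, whose products are transcription factors of the acute phase response and not inhibitors. They were taken by symbol, and all 8 were found among the 49585 features of the deposited gene tables. Whole bladder RNA came from C57BL/6 mice, all of which had undergone bilateral adrenalectomy, the removal of both adrenal glands. One set of mice was given CORT, that is corticosterone, the chief adrenal glucocorticoid in this species, at an inactive-phase timing, and the other was given vehicle only. Libraries carry the times 4, 8, 12, 16, 20 and 24 h, with 3 per treatment and time and 36 in all. By its title the study asked how glucocorticoids control the clock of the bladder and the daily pattern of urination. Time zero is not defined in the labels, which leaves the interval since a dose unknown, and no group of mice with adrenal glands was analysed here. Whether the 3 replicates came from different animals is not labelled; the p-values therefore rest on the scatter among these libraries, which may be technical.

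Glucocorticoids act through the glucocorticoid receptor, a transcription factor that moves to the nucleus when it binds the hormone. Several of these genes are known targets of that receptor, and several are also switched on quickly by the inflammatory or growth signals that their products then restrain, which makes those feedback genes. DUSP1 removes phosphate from p38 and JNK kinases, the protein of Nfkbia holds NF-kB in the cytoplasm, the protein of Tnfaip3 (A20) edits ubiquitin chains upstream of it, ZFP36 speeds the decay of cytokine mRNAs with AU-rich elements, and SOCS3 blocks receptors of the IL-6 family. Annexin A1 is a phospholipid-binding protein that acts on neutrophils through formyl peptide receptors, while C/EBP beta and C/EBP delta drive acute phase genes.

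Promoter windows, from 250 bases before to 50 bases after the transcription start, were taken from RefSeq (build GRCm38.p6) for 7 of the 8 genes; Cebpd had no entry. The 5 windows below are shown for some of the pairs of genes that varied together over the libraries (Zfp36 with Socs3, Dusp1 with Zfp36, Nfkbia with Tnfaip3). Cebpb, whose window is not shown, also varied with Zfp36 and Socs3. As the choice followed correlations in these data, the motifs are no separate support for them. Capitals mark matches to the motifs named in the next paragraph; all 5 genes lie on the minus strand and are written 5′ to 3′ on the gene's own strand.
Dusp1, chr17:26508423-26508722: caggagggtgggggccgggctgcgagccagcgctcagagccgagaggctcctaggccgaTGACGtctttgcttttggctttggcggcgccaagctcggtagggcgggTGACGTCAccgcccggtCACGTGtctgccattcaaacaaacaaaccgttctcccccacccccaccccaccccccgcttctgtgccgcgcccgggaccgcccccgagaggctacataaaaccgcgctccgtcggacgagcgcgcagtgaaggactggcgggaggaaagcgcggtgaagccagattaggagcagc
Nfkbia, chr12:55492598-55492897: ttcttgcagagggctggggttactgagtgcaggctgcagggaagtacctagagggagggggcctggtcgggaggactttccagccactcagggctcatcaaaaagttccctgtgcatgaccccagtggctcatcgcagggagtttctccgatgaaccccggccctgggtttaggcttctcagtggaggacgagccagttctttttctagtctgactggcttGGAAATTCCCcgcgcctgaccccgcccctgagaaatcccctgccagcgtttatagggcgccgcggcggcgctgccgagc
Tnfaip3, upstream start, chr10:19015361-19015660: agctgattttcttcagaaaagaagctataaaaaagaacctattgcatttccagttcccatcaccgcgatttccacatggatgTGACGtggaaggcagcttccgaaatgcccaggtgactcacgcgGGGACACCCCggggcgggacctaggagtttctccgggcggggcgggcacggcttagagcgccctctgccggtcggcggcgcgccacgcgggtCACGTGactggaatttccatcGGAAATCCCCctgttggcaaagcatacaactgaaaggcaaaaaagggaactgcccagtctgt
Zfp36, chr7:28379179-28379478: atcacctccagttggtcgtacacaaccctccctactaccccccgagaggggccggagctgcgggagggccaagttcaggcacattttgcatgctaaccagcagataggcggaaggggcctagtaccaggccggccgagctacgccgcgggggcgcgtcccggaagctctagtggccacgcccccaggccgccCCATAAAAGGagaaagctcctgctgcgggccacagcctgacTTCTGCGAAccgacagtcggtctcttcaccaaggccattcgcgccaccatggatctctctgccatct
Socs3, chr11:117969317-117969616: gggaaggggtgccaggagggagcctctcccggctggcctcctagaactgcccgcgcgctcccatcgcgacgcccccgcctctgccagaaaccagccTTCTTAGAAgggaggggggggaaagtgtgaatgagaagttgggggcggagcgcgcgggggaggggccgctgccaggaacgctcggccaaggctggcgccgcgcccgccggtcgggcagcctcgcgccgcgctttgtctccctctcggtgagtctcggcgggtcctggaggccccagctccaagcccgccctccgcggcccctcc

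The Dusp1 window holds a full cyclic AMP response element (CRE, TGACGTCA), which starts at -143 and overlaps 2 of the window's 3 matches to the short CRE (TGACG), the other of which starts at -191, and an E-box (CACGTG) at -126. Of 32851 RefSeq promoter windows of the same length, 1.79% hold the full CRE, 20.8% the short one and 7.15% this E-box, searched on both strands. The Nfkbia window has 1 kB consensus match, at -29, and the Tnfaip3 window has 2, at -125 and -12, besides a short CRE at -168 and an E-box at -33. A kB consensus is in 4.51% of all windows. In the Zfp36 window a CArG box, the element bound by serum response factor, starts at -58 and a STAT motif (TTCNNNGAA) at -17, and the Socs3 window has a STAT motif at -154. The Socs3 window lies inside the span of the gene, whose 5′ end is at 117970336. Its start is thus a downstream one, and the region before the 5′ end of Socs3 was not examined. The CArG box is present in 1.63% and the STAT motif in 8.3% of windows. Of the windows not shown, that of Cebpb holds 3 short CRE matches and that of Anxa1 a C/EBP match (TTGCNNAA, in 10.8% of windows), and the other Tnfaip3 window holds a single receptor hexamer (AGAACA, in 19%). The palindromic glucocorticoid response element was not among the letters of any of these windows; it is in 0.00913% of windows, and receptor sites outside these windows were not examined.

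On build GRCm38.p6, Dusp1 lies on the minus strand of chromosome 17 (26505591 to 26508472), Nfkbia on that of chromosome 12 (55489409 to 55492647), Tnfaip3 on that of chromosome 10 (19000910 to 19015410) and Socs3 on that of chromosome 11 (117966079 to 117970336). The other 4 genes overlap a gene that GENCODE M21 places on the opposite strand. Zfp36 (chromosome 7, 28376784 to 28379228, minus strand) overlaps Gm44710, and Anxa1 (chromosome 19, 20373434 to 20390671, minus strand) overlaps 1500015L24Rik. Cebpb (chromosome 2, 167688915 to 167690432, plus strand) overlaps Tmem189, and Cebpd (chromosome 16, 15887286 to 15889545, plus strand) overlaps Spidr. The kit keeps strand, per the labels' protocols, but whether the counting used strand is not given in the sources used here, so reads of the overlapping partner may be part of the values of these 4 genes.

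The values began as reads counted per gene, were quantile normalized by the authors, and were set here on 1 scale for all 36 libraries. They are called normalized values below and are not divided by gene length, so levels are compared within a gene only. Libraries held on average 11016413 counted reads in CORT and 10682674 in vehicle, and 63.0 to 154 reads lay behind a normalized value of 100, depending on the library. All 8 genes passed the filter on low values in every fit. Markers of bladder tissue were present in every library: the summed value of 8 urothelium markers was 52400 to 93460 in CORT and 49790 to 118900 in vehicle, and that of 7 smooth muscle markers 202600 to 365800 in CORT and 144000 to 413100 in vehicle. The sample source reads bladder throughout, yet the protocol text speaks of blood RNA and the removal of globin RNA; the summed value of 6 erythroid markers was 1084 to 3719 in CORT and 975.5 to 6419 in vehicle. The authors also deposited tables of selected genes, and there 8 of 36 column names, all of replicate 2, stand over values that the full tables give to a different name. Replicate 2 at 4 h and 8 h is affected in both treatments, and so at 16 h and 20 h. The full tables' names are used here. Directions and several differences of the 8 genes at 4 h and 8 h are also given in 2 other ways. These leave out the 8 libraries or use the other names. Marker sums and most comparisons with other genes are given under the full tables' names only. Replicate 3 libraries carry no time tag in the labels, so their times come from their titles.

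**Figure D1:**
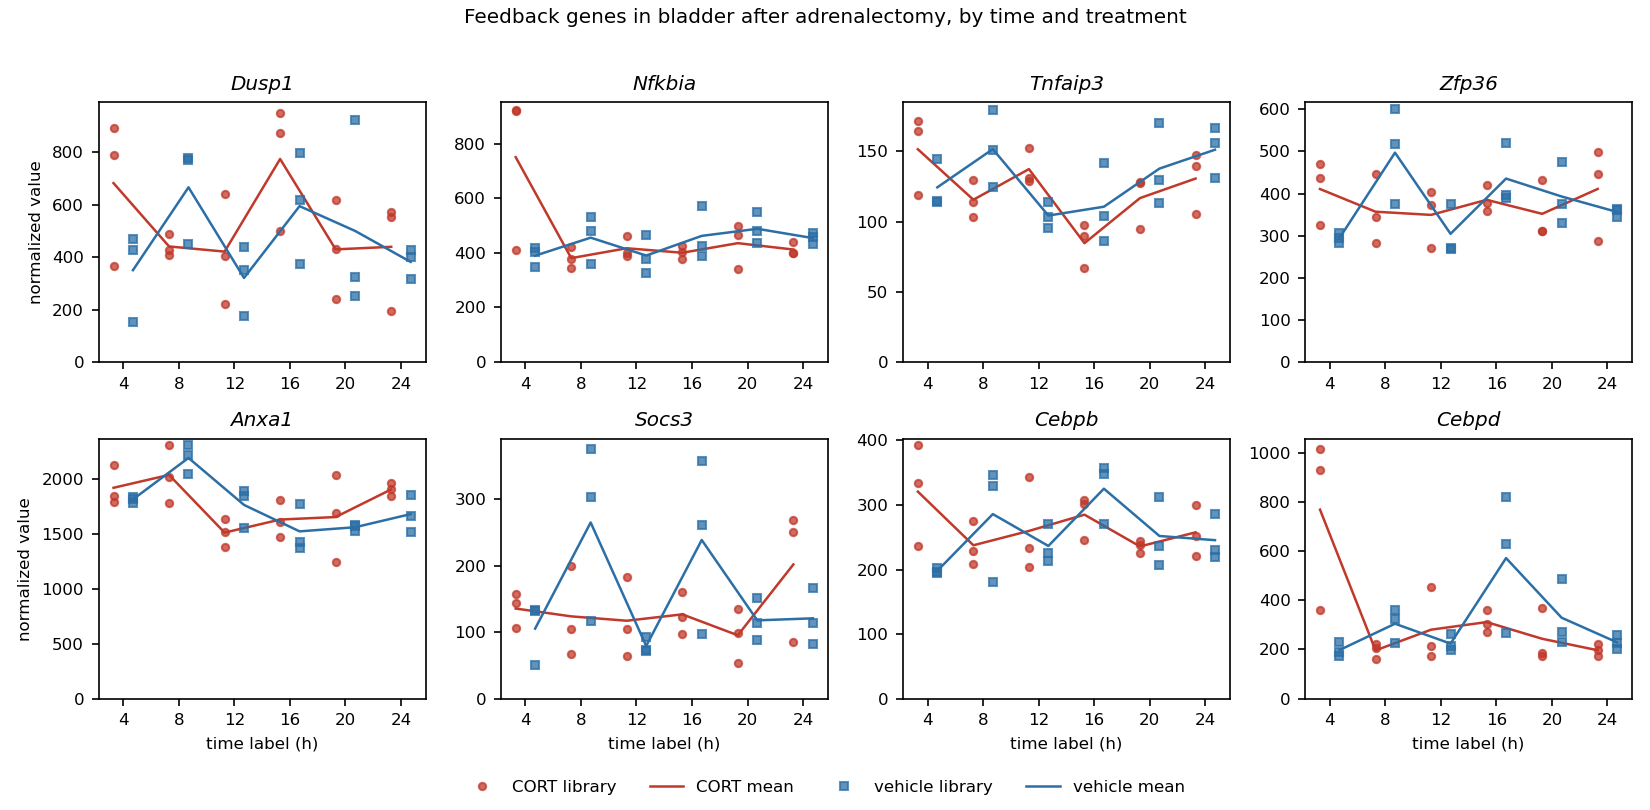
Normalized values (vertical axes, from 0) of the 8 genes against the time label in hours, with each CORT library (red circles) set left of the vehicle libraries (blue squares) and lines through the means of 3. At 4 h the CORT mean lies above the vehicle mean in all 8 panels, and at 8 h below it; libraries of the 2 treatments overlap in most panels and times.

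The first question was whether CORT moved the genes over the whole day. Averaged over the 6 times, none of the 8 passed the test of CORT minus vehicle (limma, a linear model with moderated variances, Benjamini-Hochberg adjusted p under 0.05 over all features), with 0 of 8 at an unadjusted p under 0.05 and 0 of 8 called without moderation of variances. Of 17867 features tested, 734 were called, or 4.11%, and 20.2% had an unadjusted p under 0.05. With the names that the selected-gene tables use, 0 features were called. The 8 differences had a median of 0.00927 on the log2 scale, against 0.0184 for all features tested. The narrowest interval was that of Anxa1, with a difference of 0.01 and a 95% interval of -0.10 to 0.13. Cebpd differed by 0.00 (95% interval -0.33 to 0.33), Nfkbia by 0.03 (-0.15 to 0.22), Zfp36 by 0.00 (-0.18 to 0.19), Cebpb by 0.06 (-0.13 to 0.24) and Tnfaip3 by -0.09 (-0.25 to 0.08). The widest intervals were those of Dusp1, with a difference of 0.20 (-0.25 to 0.65), and of Socs3, with -0.11 (-0.56 to 0.34). These intervals leave room for differences of the size of their bounds and do not show that the treatments act alike.

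At single times the genes lay on opposite sides. At 4 h all 8 were above 0 in CORT minus vehicle, with a median log2 difference of 0.566 against 0.000912 for all features, of which 50.1% were above 0. At 8 h all 8 were below 0, with a median of -0.427 against 0.0506 for all features, of which 57.4% were above 0. None of the 8 passed the adjusted test at 4 h, where 0.162% of all features did, nor at 8 h, where 0.795% did. At an unadjusted p under 0.05 there were 4 of 8 genes at 4 h (Cebpd, Nfkbia, Cebpb and Zfp36) and 1 of 8 at 8 h (Zfp36), against 6.9% and 15.1% of all features; without moderation of variances 0 of 8 were called at both times. As several of the 8 genes varied together from library to library, their common direction at a time is not 8 separate observations.

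These differences depend in part on the 8 libraries with conflicting names. Without them 8 of 8 genes were above 0 at 4 h and 1 of 8, Anxa1, at 8 h; under the names that the selected-gene tables use, 7 of 8 were above 0 at 4 h and 2 of 8, Anxa1 and Cebpb, at 8 h. No gene was called either way. The log2 difference at 4 h was, without these libraries and with the other names, 0.71 and 0.49 for Nfkbia, 0.50 and 0.40 for Cebpb, 1.00 and 0.58 for Dusp1, and 0.38 and 0.30 for Zfp36. At 8 h it was -0.86 and -0.07 for Socs3, -0.40 and -0.13 for Dusp1, -0.28 and -0.15 for Zfp36, and -0.65 and -0.22 for Cebpd.

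Cebpd, the gene of a transcription factor of the acute phase response, showed the widest separation. Its normalized value at 4 h was 361.8, 1016 and 930.8 in the CORT libraries (replicates 1 to 3), against 173.8, 230.6 and 188.6 in the vehicle libraries. Each CORT library was above every vehicle library, and CORT replicate 1 stood well below the other 2. The share of all features with such a separation is not given here, for this gene or for those below. The log2 difference was 1.83 ± 0.39 (SE; 3.55-fold; limma adjusted p = 0.0507), which did not pass the threshold of 0.05. Without CORT 4 h replicate 1 it was 2.30 with an adjusted p of 0.00343, and without the 8 libraries with conflicting names 1.68 with an adjusted p of 0.965; with the other names it was 1.59 with an adjusted p of 1. Among the other settings it was called with a pseudocount of 10 (adjusted p = 0.0373) and with library weights (adjusted p = 0.000413). By replicate number the log2 difference at 4 h was 1.05, 2.13 and 2.30. At 8 h the order was the reverse, with 162.9, 220.6 and 205.4 in CORT and 226.8, 325.3 and 362.8 in vehicle, where each CORT library was below every vehicle library (log2 difference -0.62 ± 0.39, adjusted p = 0.472). With the other names the 8 h libraries overlapped, as replicate 2 became 270.4 in CORT and 174 in vehicle.

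At 16 h the Cebpd libraries scattered widely in vehicle. Here the values were 271.1, 304.1 and 359.7 in CORT and 631, 820.1 and 265.7 in vehicle, so that replicates 1 and 2 of vehicle were high and replicate 3 was not (log2 difference -0.74 ± 0.39, adjusted p = 0.999). Replicate 2 of both treatments at 16 h is among the libraries with conflicting names; the difference was -0.39 without the 8 libraries and 0.45, in the other direction, with the other names. The CORT means, from high to low, were 769.5 ± 355.6 at 4 h, 311.6 ± 44.8 at 16 h, 280.7 ± 150.3 at 12 h, 243.6 ± 109.1 at 20 h, 196.9 ± 25.5 at 24 h and 196.3 ± 29.9 at 8 h (n = 3 each, with SD). Those of vehicle were 572.3 ± 281.8 at 16 h, 329.4 ± 137.6 at 20 h, 305.0 ± 70.3 at 8 h, 228.9 ± 27.3 at 24 h, 223.9 ± 33.5 at 12 h and 197.7 ± 29.5 at 4 h (n = 3 each, with SD). Neighbouring times in both orders overlapped in their libraries, except that the lowest CORT library at 4 h (361.8) was just above the highest at 16 h (359.7). The test of whether the treatment difference varied between times gave an unadjusted p of 0.000945 and an adjusted p of 0.279 for Cebpd (limma, F test over 6 times); 0.134% of all features were called in this test. None of the 8 genes was called there, and 0 of 8 were called without moderation. An unadjusted p under 0.05 was reached by 3 of 8 (Nfkbia, Tnfaip3 and Cebpd), against 5.51% of all features.

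Cebpb, whose protein pairs with C/EBP delta, had values of 236, 392.2 and 334.1 in CORT and of 202.5, 196.9 and 194.6 in vehicle at 4 h. The groups did not overlap, and the vehicle libraries lay close together. The log2 difference was 0.66 ± 0.22 (adjusted p = 0.413). With the other names the 4 h groups of Cebpb overlapped, as replicate 2 became 356.9 in CORT and 307.9 in vehicle. At the other times the CORT means were 235.8 to 285.0 and the vehicle means 236.5 to 325.3, and the groups overlapped at each of them.

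The NF-kB inhibitor gene Nfkbia also separated at 4 h in part of the libraries. It had 409.2, 920.1 and 921.9 in CORT, against 350, 417 and 402 in vehicle. CORT replicates 2 and 3 were far above every vehicle library, while CORT replicate 1 lay within the vehicle range. The log2 difference was 0.85 ± 0.22 (adjusted p = 0.141), and 1.24 with an adjusted p of 0.000352 without CORT 4 h replicate 1. Of 36 fits that each left out a single library, only that 1 called Nfkbia, and the limma adjusted p ran up to 0.850. With the other names the difference was 0.49, which was not called. At the 5 later times the Nfkbia means were 380.7 to 435.5 in CORT and 390.1 to 488.1 in vehicle, with all groups overlapping. The 2 CORT libraries at 4 h thus held the highest Nfkbia values of all 36, where the next was 572.8, in vehicle at 16 h.

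Tnfaip3 encodes A20, another brake on NF-kB that is itself an NF-kB target. Its 4 h values were 118.8, 164.5 and 171.3 in CORT and 114.2, 114.7 and 144.3 in vehicle, which overlapped (log2 difference 0.27 ± 0.20, adjusted p = 0.873). At 12 h it had 152.4, 128.7 and 131.1 in CORT and 114, 103.4 and 95.58 in vehicle, with each CORT library above every vehicle library. The log2 difference was 0.39 ± 0.20 there, with an unadjusted p of 0.0539 and an adjusted p of 1. At 16 h the CORT mean was 84.7 ± 16.0, the lowest of the day for Tnfaip3, against 110.6 ± 28.1 in vehicle (SD, n = 3).

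Zfp36, whose protein tristetraprolin binds AU-rich elements of cytokine mRNAs, had 326, 437.1 and 469.1 in CORT and 293.6, 282 and 307.4 in vehicle at 4 h. Every CORT library was above every vehicle library, by a log2 difference of 0.46 ± 0.22 (adjusted p = 0.699). With the other names these groups overlapped, as replicate 2 became 397.6 in CORT and 359.1 in vehicle. At 8 h Zfp36 had 343.4, 281.9 and 445.4 in CORT and 374.1, 516.8 and 600.2 in vehicle, which overlapped (log2 difference -0.47 ± 0.22, adjusted p = 0.294). The highest Zfp36 value of all 36 libraries, 600.2, was in vehicle at 8 h, and the lowest, 268.1, in vehicle at 12 h.

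Dusp1 and Socs3 varied most among replicates. Dusp1, which encodes the MAP kinase phosphatase MKP-1, had 366.9, 891.4 and 788.9 in CORT and 153.9, 426.9 and 470.6 in vehicle at 4 h; replicate 1 was the lowest in both treatments and the groups overlapped. The log2 difference was 1.02 ± 0.53 (adjusted p = 0.775), and within replicate numbers it was 1.25, 1.06 and 0.74. Socs3 had 66.67, 105.4 and 199 in CORT and 116.9, 303.2 and 374.8 in vehicle at 8 h, with a log2 difference of -1.08 ± 0.54 (adjusted p = 0.343); the values overlapped. Within replicate numbers it was -0.80, -1.52 and -0.91, of which the value of replicate 2 rests on the conflicting names; the Socs3 difference was -0.86 without the 8 libraries and -0.07 with the other names. The SD within groups, on the log2 scale, was 0.671 for Dusp1, 0.679 for Socs3 and 0.497 for Cebpd, against a median of 0.245 over all features. Among features of like level these SDs lay at the 99.6th, 99.2th and 98.1th percentile.

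Dusp1 showed no single high time. Its CORT means were highest at 16 h (774.3 ± 240.8) and 4 h (682.4 ± 278.0) and lay between 421.3 and 440.9 at the other times. The vehicle means of Dusp1 were highest at 8 h (666.3 ± 186.2), followed by 16 h (594.7 ± 212.6), and lowest at 12 h (320.8 ± 134.1; SD with n = 3). Socs3 means were highest in CORT at 24 h (201.9 ± 101.2) and in vehicle at 8 h (265.0 ± 133.2) and 16 h (238.6 ± 131.8), and lowest in CORT at 20 h (95.2 ± 40.8) and in vehicle at 12 h (79.2 ± 11.5). With SDs of this size, most neighbouring times did not differ beyond their spread.

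**Figure D2:**
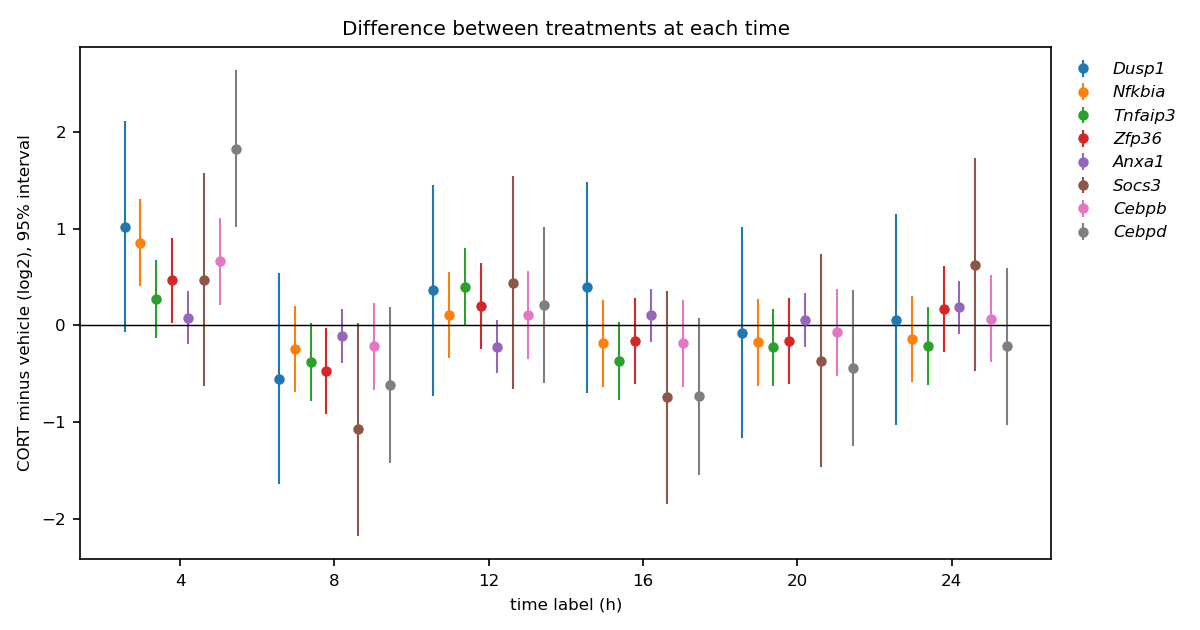
Log2 difference, CORT minus vehicle (vertical axis), with 95% intervals for each of the 8 genes at each time label in hours (horizontal axis, 3 libraries per treatment and time). All 8 points are above 0 at 4 h, led by Cebpd at 1.83, and all 8 are below 0 at 8 h, where Socs3 is lowest at -1.08; no point passed the adjusted test.

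At the later times the 8 genes were split. At 12 h 7 of 8 were above 0, all but Anxa1, with a median log2 difference of 0.203. At 16 h 2 of 8 were above 0 (median -0.187), at 20 h 1 of 8 (median -0.169) and at 24 h 5 of 8 (median 0.0621). None of the 8 was called at these 4 times by limma, none had an unadjusted p under 0.05 (0 of 8 at each), and 0 of 8 were called without moderation; 0.0448% of all features were called at 12 h, 0.0112% at 16 h, 0% at 20 h and 0.0336% at 24 h. At 20 h, where no feature was called, 1073 of 17867 features (6.01%) had an unadjusted p under 0.05. This share was 4.51% at 12 h, 4.05% at 16 h and 6.31% at 24 h.

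Anxa1, whose product dampens neutrophil entry, varied least among replicates of the 8 genes. Its SD within groups was 0.162 on the log2 scale, and its 18 values ran from 1242 to 2316 with a median of 1803 in CORT and from 1373 to 2316 with a median of 1779 in vehicle. In vehicle it was highest at 8 h, with 2044, 2316 and 2223, and lowest at 16 h, with 1428, 1373 and 1773. The libraries at 8 h lay above those of every other vehicle time. The means at 4 h (1816 ± 28), 12 h (1766 ± 184), 24 h (1682 ± 168), 20 h (1562 ± 32) and 16 h (1524 ± 217) followed in this order, and neighbours from 4 h on overlapped. In CORT Anxa1 was likewise highest at 8 h (2039 ± 266), followed by 4 h (1922 ± 179) and 24 h (1907 ± 62), and lowest at 12 h (1513 ± 127; SD, n = 3 each).

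The second question was whether the genes follow the time of day within each treatment. In vehicle none of the 8 passed the F test over 6 times (limma), which called 0.396% of all features. Zfp36, Anxa1 and Cebpd, 3 of 8, had an unadjusted p under 0.05, against 13.8% of all features. Without moderation 0 of 8 were called. In CORT none passed either, against 0.0167% of all features, and 0 of 8 were called without moderation. Nfkbia, Tnfaip3 and Cebpd, 3 of 8, had an unadjusted p under 0.05 there, against 5.58% of all features. A 24 h cosine gave Anxa1 an amplitude of 0.19 ± 0.06 with a peak at 3.91 ± 1.31 h in CORT (adjusted p = 0.792) and of 0.22 ± 0.05 with a peak at 7.05 ± 0.81 h in vehicle (log2, mean to peak, SE; adjusted p = 0.0883). The vehicle amplitude of Anxa1 was 0.20 without the 8 libraries with conflicting names (adjusted p = 0.494) and 0.03 with the other names (adjusted p = 1). For Cebpd the amplitude was 0.29 ± 0.26 in CORT (adjusted p = 0.976) and 0.47 ± 0.17 in vehicle, where the fitted peak was at 16.2 ± 1.4 h (adjusted p = 0.387). Tnfaip3 had an amplitude of 0.26 ± 0.10 with a peak at 4.32 ± 1.39 h in CORT (adjusted p = 0.835) and of 0.21 ± 0.09 in vehicle (adjusted p = 0.495).

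In the rhythm tests, too, the adjusted threshold was not reached by any of the 8 genes. In CORT 0% of all features were called and 1055 of 17921 had an unadjusted p under 0.05, among them Tnfaip3 and Anxa1, 2 of 8. In vehicle 0.429% of all features were called, and Anxa1 and Cebpd, 2 of 8, had an unadjusted p under 0.05, against 12.6% of all features. The rhythm difference between CORT and vehicle called 0.106% of all features and 0 of 8 of the genes. None of the 8 had an unadjusted p under 0.05 there, against 4.37% of all features. Without moderation of variances 0 of 8 were called in each of these 3 rhythm tests by the same linear models.

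Other genes regulated by glucocorticoids were set beside the 8 from a fixed list. At 4 h 6 of 16 other glucocorticoid receptor targets were called, all higher in CORT: Tsc22d3 (GILZ, an inhibitor of inflammatory transcription factors) by 2.31 ± 0.28 (limma adjusted p = 0.000117), Errfi1 (an inhibitor of EGF receptors) by 2.27 ± 0.28, the clock gene Per1 by 2.13 ± 0.28, the receptor co-chaperone gene Fkbp5 by 2.19 ± 0.33, the kinase gene Sgk1 by 1.49 ± 0.29 and Pdk4, a brake on pyruvate use, by 1.14 ± 0.23 (log2, SE). Of the 16, 15 were above 0 with a median of 1.09, against 0.566 for the 8 feedback genes. The difference between both lists was not tested. The count of 6 became 0 without replicate 2 of every group, 0 without replicate 3, 0 without the 8 libraries with conflicting names and 0 with the other names, 10 without replicate 1, 9 without CORT 4 h replicate 1, and 4 when replicate 2 or 3 of either treatment at 4 h was left out. Averaged over the day 0 of the 16 were called by limma, with 14 of 16 above 0.

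**Figure D3:**
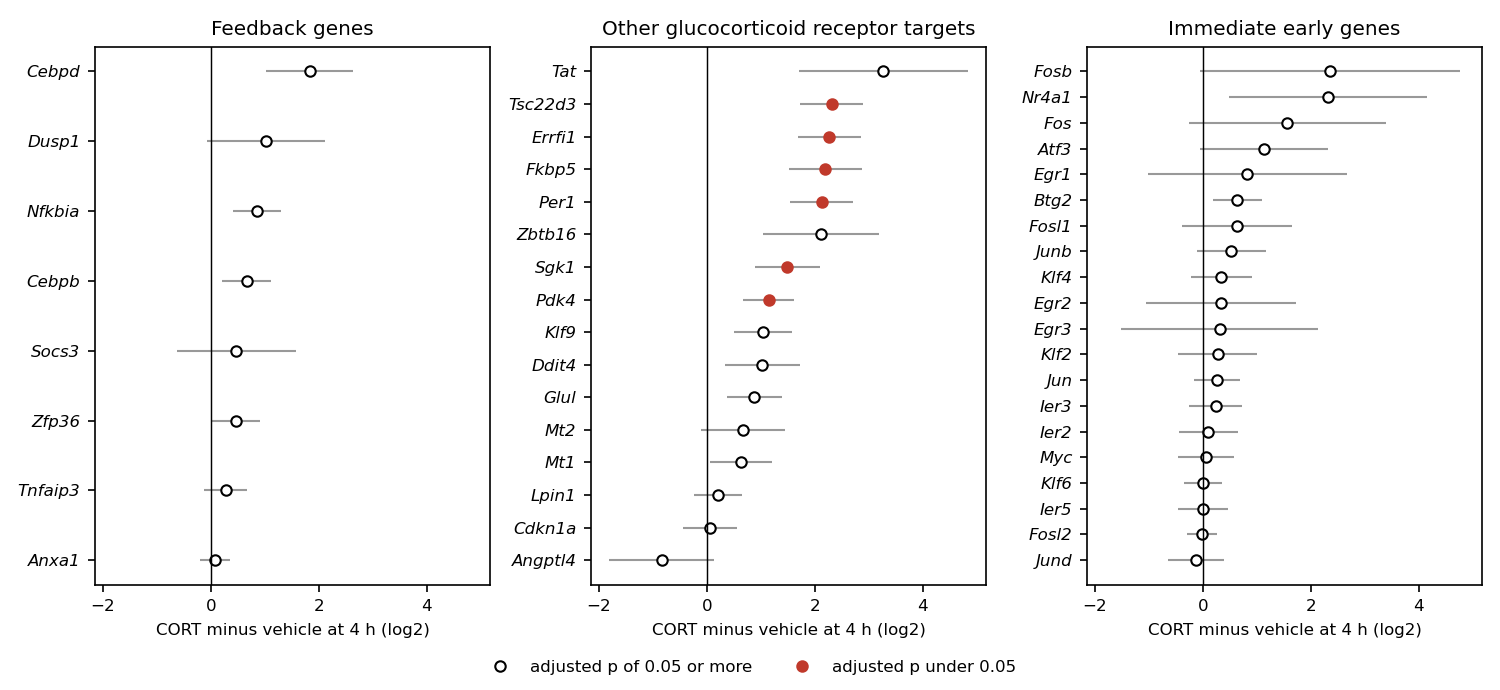
Log2 difference, CORT minus vehicle, at 4 h (horizontal axes) with 95% intervals for the 8 feedback genes, 16 other glucocorticoid receptor targets and 20 immediate early genes (one gene a row; filled red points passed the adjusted test). Cebpd, at 1.83, lies within the range of the called targets such as Sgk1 at 1.49 and Tsc22d3 at 2.31, while none of the feedback or immediate early genes is filled.

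Immediate early genes, which respond within minutes to stimuli that include tissue handling, lay mostly on the same sides as the 8 genes. Of 20, 17 were above 0 at 4 h (median 0.323) and 5 at 8 h (median -0.442), and limma called 0 of 20 at either time. Fos, which encodes a subunit of AP-1, differed by 1.57 at 4 h and -0.83 at 8 h, Nr4a1, an orphan nuclear receptor gene, by 2.31 and -1.78, and the stress response gene Atf3 by 1.14 and -1.12. The part of this movement in the values of the 8 genes was not tested.

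The pathways that the 8 genes restrain were mostly not called. Of 21 NF-kB subunit and inhibitor genes 1 was called over the day, Nfkb2, at -0.21 ± 0.05 (log2, SE; limma adjusted p = 0.0265), lower in CORT, and none at 4 or 8 h. Of 18 NF-kB target and cytokine genes tested 0 were called in any comparison; their median log2 difference was 0.235 at 4 h, with 11 of 18 above 0, and -0.675 at 8 h, with 3 of 18 above 0. Among 17 dual specificity phosphatase and Sprouty genes, which restrain MAP kinases as Dusp1 does, Spry4 was lower over the day (-0.50 ± 0.13, adjusted p = 0.0303) and Dusp14 higher at 8 h (0.88 ± 0.21, adjusted p = 0.04997). None of the 13 MAP kinase genes was called between treatments, and 1, Mapk12, had a called rhythm in vehicle (amplitude 0.34 ± 0.05, adjusted p = 0.0154).

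Among 21 other SOCS and JAK-STAT genes Stat3, which mediates IL-6 signals and drives Socs3, was lower in CORT over the day (-0.18 ± 0.05, limma adjusted p = 0.0314). Of 14 annexin and formyl peptide receptor genes tested Anxa9 was higher (0.47 ± 0.10, adjusted p = 0.0101), and of 11 C/EBP family and acute phase genes tested the acute phase gene Serpina3n was lower (-0.67 ± 0.17, adjusted p = 0.0270). None of 8 ZFP36 family and AU-rich RNA binding genes was called between treatments. These counts compare with 4.11% of all features called over the day, and with 0 under the names of the selected-gene tables.

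Markers of other cell types moved with treatment. Of 7 endothelium markers 6 were lower in CORT over the day by limma, among them Vwf at -0.59 ± 0.08 (adjusted p = 0.000225) and Pecam1 at -0.38 ± 0.07 (adjusted p = 0.00220), and their summed value was 2315 to 4124 in CORT and 3009 to 5934 in vehicle. At 8 h, where all 8 feedback genes were below 0, all 7 endothelium markers were below 0 too. Their sums were 2315, 2847 and 3201 in CORT and 4837, 4917 and 5018 in vehicle, with no overlap. All 7 were also below 0 at 12, 20 and 24 h, with medians of -0.285, -0.419 and -0.626, and 3 of 7 were above 0 at 16 h. At 4 h, where all 8 feedback genes were above 0, 2 of 7 endothelium markers were above 0 (median -0.269). The sums there were 3744, 4124 and 3968 in CORT and 4288, 4793 and 4668 in vehicle, again without overlap. Of 7 fibroblast markers 3 were lower over the day, with sums of 89620 to 160500 in CORT and 102600 to 218700 in vehicle. At 8 h all 7 fibroblast markers were below 0 (median -0.312) and 1, Col1a1, was called lower. The sums were 89620, 100200 and 122800 in CORT and 149700, 214400 and 218700 in vehicle, with no overlap. At 4 h 1 of 7 fibroblast markers was above 0 (median -0.348). The sums there were 126900, 129100 and 138500 in CORT and 112500, 199400 and 138200 in vehicle, which overlapped. At 24 h 2 of 7 were above 0 (median -0.41), and at 12, 16 and 20 h 3 of 7 were. All 4 neutrophil markers tested were below 0 at 8 h, with sums of 127, 145.3 and 173.4 in CORT and 241.5, 209.2 and 206.2 in vehicle. Of 7 macrophage markers 1 was above 0 at 8 h and 1, Adgre1, was called lower, with overlapping sums of 4863, 5027 and 5671 in CORT and 4851, 6569 and 7034 in vehicle, while 7 of 8 urothelium markers were above 0. Neutrophil markers, 1 of 7 at 0 in every library, summed to 127 to 278.3 in CORT and 136.7 to 273.4 in vehicle, and 0 of 4 tested were called. At 4 h all 6 erythroid markers were above 0, with sums of 2253, 2753 and 2341 in CORT and 1639, 1913 and 2141 in vehicle, and 6 of 7 macrophage markers were above 0, with sums of 6004, 6097 and 6895 in CORT and 5198, 5523 and 5337 in vehicle. At 4 h 5 of 6 adipocyte markers were below 0 (median log2 difference -1.19), as were all 7 smooth muscle markers (median -0.24), while 7 of 8 urothelium markers were above 0 (median 0.38). None of these was called at 4 h by limma. The adipocyte sums overlapped there, with 3573, 2327 and 5826 in CORT and 2407, 3074 and 8297 in vehicle, as did the smooth muscle sums. The urothelium sums did not, with 71510, 73620 and 80770 in CORT and 49790, 70520 and 61490 in vehicle. All 6 adipocyte markers were above 0 at 12 h (median 1.85) and 16 h (median 2.49). Among T and NK cell markers Trac was lower in CORT over the day (-0.74 ± 0.16, adjusted p = 0.0101), and of 6 mast cell markers 0 were called. In bulk tissue fewer cells of a type and less RNA per cell cannot be told apart, and the part of these markers in the values of the 8 genes was not tested.

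Some of the genes varied together from library to library, whereas Anxa1 passed with no other gene and Tnfaip3 with Nfkbia only. Over 36 libraries 14 of 28 pairs passed the permutation test of Pearson's r (100000 resamples, two-sided, Benjamini-Hochberg adjusted over the 28 pairs) and 12 that of Spearman's rho; the same 12 passed both. The highest was Zfp36 with Socs3 (r = 0.753, rho = 0.689, permutation p = 1e-05, the smallest that the resamples allow, adjusted 0.00028), which was 0.698 without the 2 libraries farthest from the median of Zfp36. Cebpb with Cebpd followed (r = 0.707, rho = 0.613, adjusted p = 0.00028 by permutation; 0.607 without the 2 farthest libraries), then Socs3 with Cebpb (r = 0.621, rho = 0.589) and Dusp1 with Zfp36 (r = 0.616, rho = 0.594). Nfkbia with Tnfaip3 had r = 0.566 and rho = 0.631 and kept 0.525 without the 2 farthest libraries. Nfkbia with Cebpd had r = 0.598 but rho = 0.327, and 0.187 without the 2 farthest libraries, so that this relation rests on those libraries. The permutation test shuffled all 36 libraries freely, without regard to treatment, time or replicate number. Its p-values therefore do not separate differences shared between groups or replicate numbers from other joint variation.

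Within groups these pairs also varied together, though no test was run there. When each library was taken as its deviation from the mean of its own treatment and time, r was 0.639 for Zfp36 with Socs3, 0.586 for Cebpb with Cebpd and 0.630 for Nfkbia with Tnfaip3, and 20 of 21 pairs without Anxa1 were above 0 (median 0.444). Within replicate numbers 1, 2 and 3, of 12 libraries each, r for Zfp36 with Socs3 was 0.737, 0.689 and 0.815, for Cebpb with Cebpd 0.764, 0.734 and 0.816, and for Nfkbia with Tnfaip3 0.397, 0.572 and 0.701. Within treatments r for Zfp36 with Socs3 was 0.770 in CORT and 0.746 in vehicle. Tnfaip3 with Dusp1, the exception among the 21, had r = -0.205 over all libraries, and Tnfaip3 with Zfp36, Socs3, Cebpb and Cebpd had r of 0.0748 to 0.179. The 7 pairs with Anxa1 ran from -0.232 to 0.142 on log2 values over all libraries, and none passed the permutation test. On deviations from group means all 7 were below 0 (-0.393 to -0.0481). On log2 values the 7 pairs split by replicate number, with all 7 below 0 in replicate 1 (-0.649 to -0.0533) and all 7 above 0 in replicates 2 and 3.

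**Figure D4:**
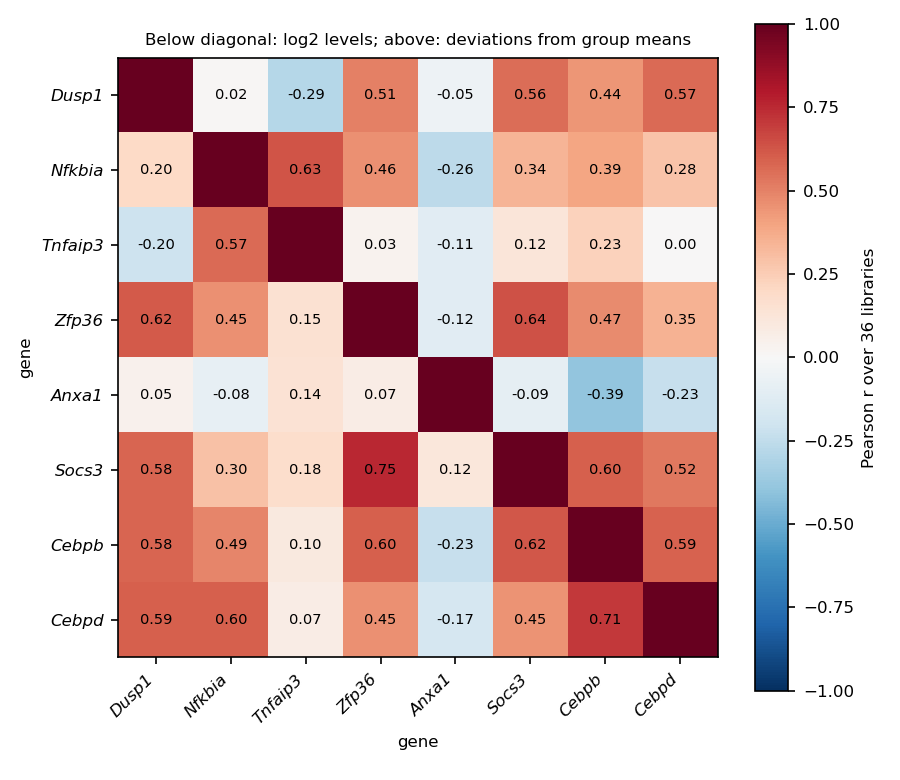
Pearson's r between the 8 genes over 36 libraries (colour scale -1 to 1), on log2 values below the diagonal and on deviations from group means above it. On log2 values Zfp36 with Socs3 (0.75) and Cebpb with Cebpd (0.71) are highest, and Nfkbia with Tnfaip3 reaches 0.57. The pairs with Anxa1 run from -0.23 to 0.14 on log2 values and from -0.39 to -0.05 on deviations.

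Among the features most like the mean pattern of the 8 genes, by Pearson's r of log2 values over 36 libraries and as a description only, were Trib1 (0.737), Errfi1 (0.734), Fos (0.732), Cytip (0.715), Sec14l1 (0.702), Tob2 (0.690), Atf3 (0.680), Gnb1 (0.678) and Nr4a1 (0.675). The nearest single features were Ctgf for Dusp1 (0.763), Mlxip for Nfkbia (0.763), Akap13 for Tnfaip3 (0.620), Fos for Zfp36 (0.776), Ccl7 for Socs3 (0.798), Csrnp1 for Cebpb (0.784) and Rhob for Cebpd (0.827). For Anxa1 it was S100a10 (0.740), whose product is the partner of annexin A2. Dusp5, another MAP kinase phosphatase gene, was among the 3 nearest to both Zfp36 (0.755) and Socs3 (0.784). All points share library, depth and normalization.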

How the data were processed

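Total RNA sequencing of whole bladder was deposited by the authors as gene tables on build mm10, per the submitters' processing notes; the sources used here name no aligner or counter. The values are a signal that the authors deposited after quantile normalization of counted reads, separately in each table of 12 libraries (the sorted values of its libraries are equal). Ranks were used to bring them to 1 scale over 36 libraries. The deposited log2 values of selected genes served only to compare library names. Analysis used log2(value + 1), which understates differences of low genes, and left out a feature whose value was the lowest possible in over 50% of libraries. Tests used limma 3.58.1 in R 4.3.3 with Benjamini-Hochberg adjustment at 0.05 over all features; correlations used NumPy 2.4.6 and SciPy 1.17.1 in Python 3.11.15. The rank step and the fits were tested on simulated data. All 8 genes were named, from each list at most the 4 genes with the smallest p over the day and those called, up to 6, and the nearest features by r, of which 1 is not reported here. Fos, Nr4a1 and Atf3 at 4 and 8 h were named after their values were seen. The 8 genes, lists and tests were chosen with earlier results of these data known. Alternatives changed the pseudocount (10), the filter, the variance model, library weights, the replicate block, the scale, the library names and the libraries left out.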

Additional observations from a re-analysis of the deposited data

Results flagged for a closer look

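For Cebpd the CORT minus vehicle difference at 4 h exceeded that at 8 h by 2.445 on the log2 scale (1.83 at 4 h, -0.62 at 8 h). It was singled out because, under the names used here, all 3 CORT libraries were above all 3 vehicle libraries at 4 h, and all 3 below them at 8 h. With the other names the Cebpd libraries at 8 h overlapped, at 162.9, 270.4 and 205.4 in CORT and 226.8, 174 and 362.8 in vehicle. The log2 difference was then 1.59 at 4 h and -0.22 at 8 h. With 3 libraries a side such separation can arise by chance, and its share over all features is not given here. The difference between these 2 times was not tested by itself; the limma F test over all 6 times had an adjusted p of 0.279.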

How the results depend on the processing

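The 8 genes in 13 comparisons (104 results) were recomputed under 49 other settings. None of these results was called as reported, so there was no call that could reverse. Some uncalled differences did change sign. Over 10 of the settings Cebpd at 16 h ran from -1.105 to 0.4514, Nfkbia at 16 h from -0.2561 to 0.2092 and Anxa1 at 8 h from -0.1928 to 0.1311. At 4 h 1 gene, Cebpd, was called with a pseudocount of 10 (adjusted p = 0.0373), a mean of at least 10 (0.0319), an intensity trend (0.0313), the replicate block (0.0473) and the scale of each treatment's own tables (0.0340), and 3 genes with library weights (Cebpd 0.000413, Nfkbia 0.00125, Cebpb 0.0163). Leaving out replicates or single libraries gave 0 to 2 genes there. Cebpd was called without any 1 of 8 libraries: CORT 4, 20 or 24 h replicate 1, CORT 12 h replicate 1 or 2, vehicle 16 h replicate 2 or 3, and vehicle 20 h replicate 1. It had an adjusted p of 0.0227 without replicate 1, 0.971 without replicate 2 and 1 without replicate 3. Library weights also called 1 gene at 8 h (Zfp36), 2 in the difference between times and 6 in the vehicle time effect. Leaving out libraries gave 0 to 2 genes in the difference between times, 0 to 2 in the vehicle time effect (Anxa1 and Cebpd without vehicle 16 h replicate 3) and 0 to 1 in the CORT time effect (Nfkbia without CORT 4 h replicate 1). The vehicle rhythm was called for 1 gene, Anxa1, with an intensity trend (0.0433) and with library weights (0.0474). Under the names of the authors' selected-gene tables Cebpd differed by 1.59 at 4 h (adjusted p = 1), and 7 of 8 genes were above 0 at 4 h and 2 of 8 at 8 h. The cause of these changes was not tested.

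Over all features the number called ranged, across settings, from 0 to 3145 for the mean over the day (734 as reported), 0 to 398 at 4 h (29), 0 to 975 at 8 h (142), 0 to 13 at 12 h (8), 0 to 31 at 16 h (2), 0 to 68 at 20 h (0), 0 to 206 at 24 h (6), 0 to 229 for the difference between times (24), 0 to 2972 for the time effect in vehicle (71), 0 to 59 for that in CORT (3), 0 to 160 for the rhythm in vehicle (77), 0 to 3 for that in CORT (0) and 0 to 23 for the rhythm difference (19). Replicate numbers carry no pairing in the labels, and not every same-numbered pair correlated over 0.1: same-numbered libraries deviated together with a mean r of 0.0859, 0.0369 and 0.0450 for numbers 1, 2 and 3, with 30, 16 and 16 of 66 pairs over 0.1, and 11, 9 and 10 of 12 libraries were closest to their own number, a hint of structure by replicate number that comes from the data and not the design. The replicate block changed 1 gene call, that of Cebpd at 4 h, and over all features called 1240 for the mean over the day, 52 at 4 h and 262 at 8 h. Depth limits the lowest values most: at a normalized value of 100, close to the levels of Socs3 and Tnfaip3, 63.0 to 154 reads were counted.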
